A study of Mus musculus with 11 samples.

Results

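The genes described here are 10 regulators of the hormone response of the adrenal cortex: the corticotropin (ACTH) receptor Mc2r and its accessory protein Mrap, the protein kinase A (PKA) subunits Prkaca, Prkar1a and Prkar2b, the cAMP phosphodiesterases Pde8a and Pde8b, the cAMP-responsive factor Crem, and the nuclear receptors Nr5a1 and Nr0b1. They were chosen by name as members of one pathway, with earlier results of these data known, and matched by gene symbol. All 10 were found among the 49671 genes of the count table. RNA was sequenced from cells sorted out of the adrenals of 6 male mice of the Nes-GFP strain, in which GFP reports the activity of the Nestin gene. Cortex and medulla were separated by dissection and pooled from 2 mice each into 3 pools, and GFP-positive and GFP-negative cells were sorted at 180 to 300 cells per tube. The 4 groups were cortex GFP-positive (n = 3), cortex GFP-negative (n = 3), medulla GFP-positive (n = 3) and medulla GFP-negative (n = 2). Every group carried the reporter and none was treated, so the groups differed by gate and by dissected tissue. In both cortex groups libraries 1 and 2 came from mice of about 3.5 months and library 3 from mice of about 2.5 months. Of the medulla GFP-positive libraries, library 1 came from the older mice and libraries 2 and 3 from the younger, and both medulla GFP-negative libraries came from the older mice. A library was sorted from a pool of mice, so the spread between libraries of different pools holds both animal and sorting differences. By these ages and 3 pools of each tissue, 2 libraries of some medulla group shared a pool, or the age labels do not follow the pools. Which of these holds is not given, and the tests below take every library as independent.

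ACTH acts on the steroid-producing cells of the adrenal cortex. It binds Mc2r, a receptor that reaches the cell surface only together with Mrap, and the receptor raises cAMP through the stimulatory G protein. Cyclic AMP releases the catalytic subunits of PKA from the regulatory subunits, phosphodiesterases break cAMP down, and PKA acts on transcription factors of the Creb and Crem family. Nr5a1 (steroidogenic factor 1) switches on most genes of steroid synthesis, and Nr0b1 (Dax1) represses Nr5a1 targets.

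The libraries held 18500690 to 29204212 counts. Levels are given as counts scaled to library size (CPM) with factors from the trimmed mean of M-values method (TMM), and 3 counts in a library corresponded to 0.104 to 0.157 CPM. The tissue labels were checked against marker genes fixed as lists. The summed level of 14 chromaffin markers was 6456 to 13871 CPM in the medulla libraries and 1.26 to 192 CPM in the cortex libraries, and the chromaffin enzyme gene Pnmt was at 0 counts in all cortex libraries. The 17 steroid cell markers, however, summed to 75570 to 91263 CPM in cortex GFP-positive, 42412 to 48181 in cortex GFP-negative, 27344 to 49034 in medulla GFP-positive and 10453 to 19414 in medulla GFP-negative libraries, so all 4 groups held steroid cell RNA. The 10 macrophage markers summed to 48.6 to 207 CPM in cortex GFP-positive and 239 to 591 in medulla GFP-positive libraries, against 2295 to 3895 in cortex GFP-negative and 11410 to 13242 in medulla GFP-negative libraries. The 10 Schwann cell and glia markers summed to 200 to 295 CPM in cortex GFP-positive and 2001 to 4740 in medulla GFP-positive libraries, against 4.17 to 28.1 in the GFP-negative libraries. The 10 pericyte and smooth muscle markers summed to 62.7 to 241 CPM in cortex GFP-positive and 2.09 to 6.87 in cortex GFP-negative libraries. Their sums were 115 to 284 CPM in medulla GFP-positive and 135 to 149 in medulla GFP-negative libraries. In such bulk samples, fewer cells of a type and less RNA per cell cannot be told apart. The part of these mixtures in the gene differences below was not tested. A scaling to steroid cell markers, given after the paragraphs on single members, turned or removed several calls stated in them. These include gate differences of Prkaca and Crem and the GFP-negative tissue differences of Mc2r and Prkar2b.

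For 3 of the genes whose levels differed between gates, the bases 250 to 21 before the annotated start are shown, because these stretches hold, or do not hold, the letters that factors of this pathway are known to bind. The sequences are RefSeq's on build GRCm38.p6, 230 bases long and written 5′ to 3′ on the gene's strand. Capitals mark AGGTCA, a half-site of nuclear receptors such as Nr5a1, or TGACG, a half-site of Creb and Crem factors, both searched on both strands.
Nr0b1 (chrX:86191525-86191754, plus strand): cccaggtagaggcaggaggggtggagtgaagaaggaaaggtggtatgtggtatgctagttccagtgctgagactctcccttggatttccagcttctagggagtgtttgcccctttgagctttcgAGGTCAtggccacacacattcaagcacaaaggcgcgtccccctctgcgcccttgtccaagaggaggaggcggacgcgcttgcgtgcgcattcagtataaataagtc
Prkaca (chr8:83972728-83972957, plus strand): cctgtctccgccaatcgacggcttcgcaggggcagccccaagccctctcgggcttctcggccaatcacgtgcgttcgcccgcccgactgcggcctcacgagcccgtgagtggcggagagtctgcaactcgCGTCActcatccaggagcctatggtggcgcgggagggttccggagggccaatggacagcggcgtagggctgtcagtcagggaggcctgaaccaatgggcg
Prkar2b (chr12:32061298-32061527, minus strand): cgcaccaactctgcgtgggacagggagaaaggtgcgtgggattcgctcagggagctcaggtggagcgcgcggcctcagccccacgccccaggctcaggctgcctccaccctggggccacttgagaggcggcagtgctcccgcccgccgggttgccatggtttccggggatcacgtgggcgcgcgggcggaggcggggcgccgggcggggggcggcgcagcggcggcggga

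The Nr0b1 stretch held AGGTCA once, 126 to 121 bases before the start. The Prkaca stretch held TGACG once on the opposite strand, where it reads as CGTCA, 120 to 116 bases before the start. The Prkar2b stretch held neither. Of 32817 such windows over all genes of the table, 13.05% held AGGTCA and 15.85% held TGACG, so single matches are frequent. The full palindrome TGACGTCA was in 1.283% of windows and in none of the 3 stretches shown. Where a gene has several annotated starts, the stretch shown is the one before the most upstream start. Among the other members with a window, Pde8a held 1 AGGTCA and 1 TGACG in its single window, and none of the 5 Pde8b windows held either. Of the 6 Prkar1a windows the most upstream held neither, 3 others held TGACG, and 1 of those held the full palindrome.

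Differences between groups were tested in 1 edgeR quasi-likelihood fit over all 11 libraries and 20893 genes, with Benjamini-Hochberg adjustment over all of them, and a gene is said to rise or fall only at an adjusted p under 0.05. Values are log2 differences ± SE. Between cortex GFP-positive and GFP-negative cells 7 of the 10 genes passed: Mrap, Prkaca, Prkar2b, Pde8b and Crem were higher in GFP-positive cells, and Mc2r and Nr0b1 lower. Over all genes 14.7% passed in that comparison, 7.14% higher and 7.59% lower. In the medulla 4 of the 10 passed, Mrap and Prkaca higher and Mc2r and Nr0b1 lower in GFP-positive cells, where 21.4% of all genes passed, 10.2% as higher and 11.1% as lower. Between GFP-positive cells of the cortex and of the medulla 5 passed, Mc2r, Nr5a1, Nr0b1, Prkar2b and Crem, all higher in the cortex (15.5% of all genes passed, 6.04% as higher and 9.45% as lower in the cortex). Between GFP-negative cells of the same tissues 2 passed, Mc2r and Prkar2b, both higher in the cortex, with 18.6% of all genes passing, 8.06% as higher and 10.6% as lower there. The median log2 difference of the 10 genes was 0.79, 0.42, 0.74 and 0.82 in these 4 comparisons in turn, against 0.03, 0.09, -0.03 and -0.02 over all genes tested. The 16 steroid cell markers tested had larger medians, of 0.95, 1.53, 1.08 and 1.39 in turn. The comparisons share libraries and are not independent of one another. Fits on libraries of the older mice hold only 1 medulla GFP-positive library, and fits without a medulla GFP-negative library hold only 1 of that group. The lone library is then assumed to vary like the other groups, so calls lost or gained in these fits, given below, do not show a smaller or larger difference.

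**Figure D1:**
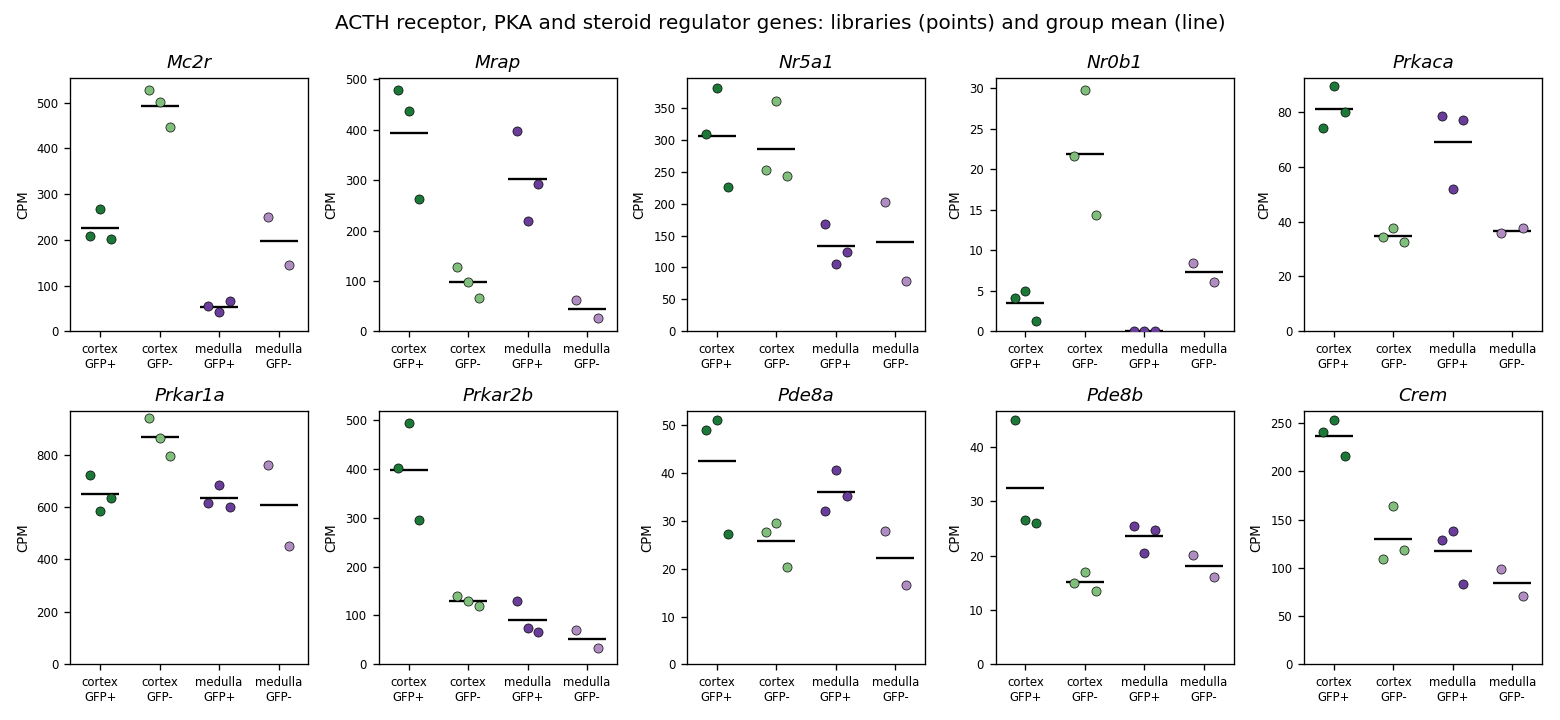
CPM of each of the 10 genes, 1 panel a gene with a linear axis from 0, with a point for each library and a line at each group mean. Mc2r and Mrap show opposite steps between the gates in both tissues, and Nr0b1 is lowest in the 3 medulla GFP-positive libraries, with 1 count in total.

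The receptor and its accessory protein moved in opposite directions between the gates. Mc2r (ENSMUSG00000045569, chromosome 18, 68406907 to 68429251, minus strand, mm10) was measured at 208, 267 and 201 CPM in the cortex GFP-positive libraries and at 529, 501 and 446 CPM in the cortex GFP-negative ones. It was at 54.6, 41.4 and 66.3 CPM in the medulla GFP-positive libraries and at 249 and 146 CPM in the medulla GFP-negative ones. Within each tissue every GFP-positive library lay below every GFP-negative library, and the only groups whose ranges overlapped were cortex GFP-positive and medulla GFP-negative. Mc2r was 2.18-fold lower in GFP-positive than in GFP-negative cortex cells (log2 -1.12 ± 0.23, adjusted p = 0.00868) and 3.65-fold lower in the medulla (log2 -1.87 ± 0.25, adjusted p = 0.000658). The cortex exceeded the medulla 4.17-fold among GFP-positive cells (log2 2.06 ± 0.23, adjusted p = 0.000574) and 2.49-fold among GFP-negative cells (log2 1.32 ± 0.26, adjusted p = 0.0083). The difference between the gate effects in the tissues did not pass (log2 0.74 ± 0.34, adjusted p = 0.301). With libraries of the older mice only, the cortex gate difference of Mc2r was log2 -1.12 with an adjusted p of 0.0773, and without medulla GFP-negative library 2 the difference between GFP-negative tissues was log2 0.98 with an adjusted p of 0.0653.

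Mrap (ENSMUSG00000039956, chromosome 16, 90738324 to 90749785, plus strand) was at 479, 438 and 262 CPM in cortex GFP-positive libraries and at 127, 97.6 and 66.4 CPM in cortex GFP-negative ones. The medulla GFP-positive libraries held 398, 218 and 292 CPM, and the medulla GFP-negative ones 63.2 and 27.3 CPM. All 6 GFP-positive libraries lay above all 5 GFP-negative libraries, while the ranges of the GFP-positive groups overlapped between tissues. Mrap was 4.05-fold higher in GFP-positive cortex cells (log2 2.02 ± 0.38, adjusted p = 0.00604) and 6.68-fold higher in GFP-positive medulla cells (log2 2.74 ± 0.46, adjusted p = 0.00223). Neither difference between tissues passed: it was log2 0.38 ± 0.37 among GFP-positive cells (adjusted p = 0.56) and log2 1.10 ± 0.42 among GFP-negative cells (adjusted p = 0.098). The latter passed with DESeq2 (adjusted p = 0.0358), with the replicate number as a block (adjusted p = 0.0219), with age as a term (adjusted p = 0.0269) and without medulla GFP-negative library 1 (adjusted p = 0.0343).

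A ratio of the 2 transcripts within a library does not depend on how libraries are scaled to one another, and it was computed after the levels were seen, as a description with no test. Per kilobase of transcript, Mrap stood to Mc2r as 1.87 ± 0.541 (SD, n = 3) in cortex GFP-positive and 6.03 ± 1.58 (SD, n = 3) in medulla GFP-positive libraries. The ratio was 0.208 ± 0.0490 (SD, n = 3) in cortex GFP-negative and 0.235 ± 0.0502 (SD, n = 2) in medulla GFP-negative libraries. Every GFP-positive library therefore had more Mrap than Mc2r transcript per length and every GFP-negative library less. Against Star, the cholesterol carrier of steroid cells, there were 1.15 ± 0.0159 (SD, n = 3) Mc2r counts per 100 Star counts in cortex GFP-positive, 8.10 ± 1.05 (SD, n = 3) in cortex GFP-negative, 0.592 ± 0.155 (SD, n = 3) in medulla GFP-positive and 8.38 ± 0.629 (SD, n = 2) in medulla GFP-negative libraries. Mrap counts per 100 Star counts ranged from 1.48 to 2.67, from 1.15 to 2.24, from 2.74 to 3.84 and from 1.65 to 2.01 in the same order. Star itself had higher means in GFP-positive cells, at 19562 against 6112 CPM in the cortex and 9732 against 2394 in the medulla. Counts per Star therefore also carry the Star difference. Another steroid cell marker, Cyp21a1, was at 4740 against 5060 CPM and 1486 against 1742 CPM.

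**Figure D2:**
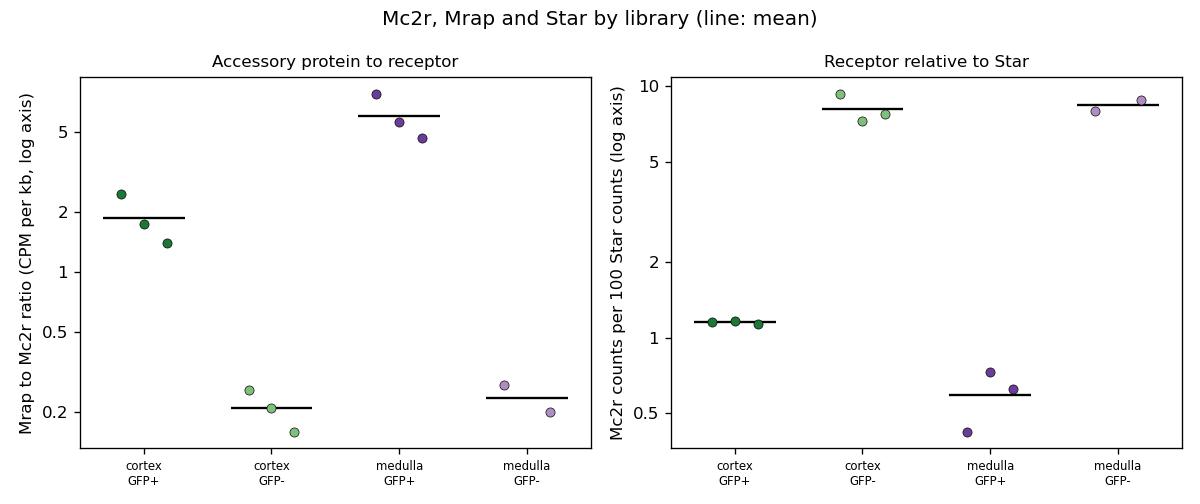
Left, the Mrap to Mc2r ratio per kilobase, and right, Mc2r counts per 100 Star counts, both on log axes, with a point for each library and a line at each group mean. The ratio is above 1 in all 6 GFP-positive libraries and below 1 in all 5 GFP-negative libraries, and the Mc2r share against Star is lower in all GFP-positive libraries. Star itself had higher means in GFP-positive cells of both tissues, which lowers that share.

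Of the PKA subunits, the catalytic subunit gene Prkaca was higher in GFP-positive cells of both tissues. Prkaca (ENSMUSG00000005469, chromosome 8, 83972993 to 83996443, plus strand) was at 74.1, 89.3 and 79.9 CPM in cortex GFP-positive and at 34.3, 37.7 and 32.5 CPM in cortex GFP-negative libraries. The medulla GFP-positive libraries held 78.4, 51.8 and 77.0 CPM and the medulla GFP-negative ones 35.8 and 37.6 CPM. The 6 GFP-positive libraries all lay above the 5 GFP-negative ones, and within a gate the tissues overlapped. The difference was log2 1.22 ± 0.17 in the cortex (adjusted p = 0.00139) and log2 0.91 ± 0.19 in the medulla (adjusted p = 0.00793). Tissue differences of Prkaca were log2 0.23 ± 0.17 and log2 -0.07 ± 0.19 in GFP-positive and GFP-negative cells, with adjusted p-values of 0.418 and 0.836. When only the medulla libraries entered the fit, the medulla gate difference had an adjusted p of 0.0638.

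The regulatory subunit gene Prkar2b, the type II subunit of endocrine and fat tissue, was highest in the cortex GFP-positive cells. Prkar2b (ENSMUSG00000002997, chromosome 12, 31958476 to 32061296, minus strand) was at 402, 494 and 295 CPM there, at 139, 130 and 120 CPM in cortex GFP-negative libraries, at 130, 74.9 and 67.3 CPM in medulla GFP-positive libraries and at 69.5 and 33.2 CPM in medulla GFP-negative ones. No library of another group reached the cortex GFP-positive range, while the cortex GFP-negative and medulla GFP-positive ranges overlapped, as did both medulla ranges. Prkar2b was 3.07-fold higher in cortex cells with GFP than without (log2 1.62 ± 0.32, adjusted p = 0.00796). It was 4.39-fold higher in cortex than in medulla GFP-positive cells (log2 2.13 ± 0.33, adjusted p = 0.00237) and 2.52-fold higher in cortex than in medulla GFP-negative cells (log2 1.33 ± 0.37, adjusted p = 0.0313). The medulla gate difference, log2 0.82 ± 0.36, did not pass (adjusted p = 0.138), and the test of the difference between the gate effects did not either (log2 0.80 ± 0.47, adjusted p = 0.437). The medulla gate difference of Prkar2b passed with age as a term (log2 1.13, adjusted p = 0.0438) and without medulla GFP-negative library 1 (log2 1.45, adjusted p = 0.0412). With the older mice only, Prkar2b gave log2 1.79 between GFP-positive tissues. In that fit its calls between GFP-positive tissues and between GFP-negative tissues were both lost. Its GFP-negative tissue difference had adjusted p-values of 0.0822, 0.066 and 0.0558 without cortex GFP-negative libraries 1, 2 and 3, and log2 0.90 with 0.214 without medulla GFP-negative library 2.

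Prkar1a, the type I regulatory subunit whose loss causes adrenal overactivity in Carney complex, passed in none of the comparisons of the fit over all libraries. Prkar1a (ENSMUSG00000020612, chromosome 11, 109649405 to 109669656, plus strand) ranged from 585 to 723 CPM in cortex GFP-positive, 794 to 940 in cortex GFP-negative, 602 to 686 in medulla GFP-positive and 451 to 761 in medulla GFP-negative libraries. The cortex gates did not overlap, yet their difference of log2 -0.42 ± 0.18 did not pass (adjusted p = 0.146), and it passed when only the cortex libraries entered the fit (adjusted p = 0.0328). The other differences of Prkar1a were log2 0.07 ± 0.20 between medulla gates, 0.03 ± 0.18 between GFP-positive tissues and 0.51 ± 0.20 between GFP-negative tissues, with adjusted p-values of 0.855, 0.945 and 0.102. The last of these passed with total counts in place of TMM (adjusted p = 0.0414), with limma voom (adjusted p = 0.0445) and without medulla GFP-negative library 1 (log2 0.95, adjusted p = 0.00755). Groups that do not overlap are frequent in so small a design: over all genes 38.2% had non-overlapping cortex gates, and 8 of the 10 genes here did. Groups did not overlap for 6 of the 10 between the medulla gates (48.1% of all genes), for 6 between GFP-positive tissues (34.5%) and for 7 between GFP-negative tissues (49.5%).

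Expressed as shares of the 4 regulatory subunit transcripts per kilobase, Prkar2b made up 38.0% ± 6.78 (SD, n = 3) in cortex GFP-positive, 13.4% ± 0.277 (SD, n = 3) in cortex GFP-negative, 12.3% ± 3.80 (SD, n = 3) in medulla GFP-positive and 7.80% ± 1.17 (SD, n = 2) in medulla GFP-negative libraries. Prkar1a made up 53.0%, 75.9%, 74.2% and 80.0% in the same groups. The remainder was Prkar1b, with group means of 7.21% to 9.96%, and Prkar2a, with 1.81% to 3.79%. The Prkar2b share averaged 25.7% ± 14.1 (SD, n = 6) over the cortex libraries and 10.5% ± 3.71 (SD, n = 5) over the medulla libraries. This difference of 15.2 percentage points had a two-sided exact permutation p of 0.0563 (0.113 after adjustment over the 2 shares tested), where the smallest p that 462 splits allow is 0.00216. This test exchanges libraries across the gates and takes each as independent, although the protocol names only 3 pools of each tissue and libraries may share one, so its p is a rough measure. The unadjusted p was 0.0238, 0.0317 and 0.0397 without cortex GFP-negative libraries 1, 2 and 3, and 0.0381 without medulla GFP-positive library 1. The cortex values were bimodal by gate, with 32.2% to 45.5% in GFP-positive and 13.2% to 13.7% in GFP-negative libraries. The summed level of the regulatory transcripts per kilobase was 284 ± 29.0 (SD, n = 3) and 264 ± 24.6 (SD, n = 3) in the cortex gates, so their makeup differed more than their sum. Of Prkaca and its paralog Prkacb together, Prkaca made up 73.8%, 47.5%, 68.4% and 49.7% per kilobase in the 4 groups in the same order, a description added after the levels were seen.

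**Figure D3:**
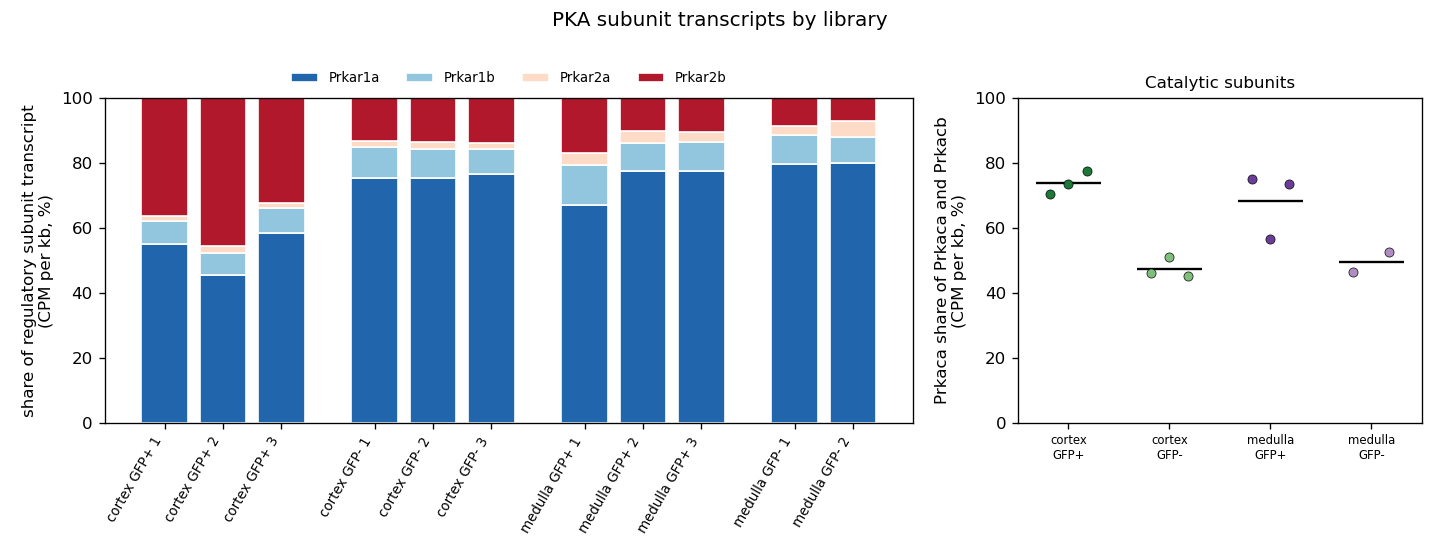
Shares of PKA subunit transcripts per kilobase, in percent, with a stacked bar of the 4 regulatory subunits for each library and the Prkaca share of the catalytic subunits as points. Prkar2b takes 32.2% to 45.5% in the 3 cortex GFP-positive libraries and at most 16.7% in the other 8.

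Of the high-affinity cAMP phosphodiesterases, Pde8b was higher in GFP-positive cortex cells, and Pde8a passed in no comparison. Pde8b (ENSMUSG00000021684, chromosome 13, 95024454 to 95250336, minus strand) was at 44.9, 26.5 and 26.0 CPM in cortex GFP-positive and at 14.9, 17.0 and 13.5 CPM in cortex GFP-negative libraries. It was at 25.3, 20.6 and 24.6 CPM in medulla GFP-positive and at 20.0 and 16.0 CPM in medulla GFP-negative libraries. In both tissues the GFP-positive libraries lay above the GFP-negative ones, by a narrow margin in the medulla. Pde8b was 2.14-fold higher in GFP-positive cortex cells (log2 1.10 ± 0.24, adjusted p = 0.0126), and its medulla difference of log2 0.38 ± 0.27 did not pass (adjusted p = 0.354). The cortex call was lost without cortex GFP-negative library 3 (adjusted p = 0.0534) and with the older mice only (adjusted p = 0.104).

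Pde8a (ENSMUSG00000025584, chromosome 7, 81213596 to 81334533, plus strand) had group means of 42.5 ± 13.2 (SD, n = 3), 25.8 ± 4.85 (SD, n = 3), 36.0 ± 4.35 (SD, n = 3) and 22.2 ± 8.02 (SD, n = 2) CPM in cortex GFP-positive, cortex GFP-negative, medulla GFP-positive and medulla GFP-negative cells. None of its differences passed. Between gates it was log2 0.72 ± 0.28 in the cortex (adjusted p = 0.115) and log2 0.70 ± 0.32 in the medulla (adjusted p = 0.152). The cortex value passed without cortex GFP-positive library 3, the lowest of its group at 27.2 CPM, which gave log2 0.96 and an adjusted p of 0.04. Of Pde8a and Pde8b together, per kilobase, Pde8b made up 31.9% ± 5.90 (SD, n = 6) in the cortex and 33.3% ± 5.15 (SD, n = 5) in the medulla libraries, which gave a two-sided exact permutation p of 0.667.

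Crem, which encodes activators and the cAMP-induced repressor ICER, was highest in cortex GFP-positive cells. Crem (ENSMUSG00000063889, chromosome 18, 3266048 to 3337748, minus strand) was at 240, 253 and 217 CPM there and at 109, 164 and 118 CPM in cortex GFP-negative libraries. It was at 129, 139 and 83.3 CPM in medulla GFP-positive and at 98.8 and 70.8 CPM in medulla GFP-negative libraries. The cortex GFP-positive libraries lay above all others, and the ranges of cortex GFP-negative and medulla GFP-positive libraries overlapped, as did those of the medulla gates. Crem rose in cortex cells with GFP over those without (log2 0.86 ± 0.22, adjusted p = 0.029) and in cortex over medulla GFP-positive cells (log2 1.01 ± 0.23, adjusted p = 0.014). The cortex gate call was lost without cortex GFP-positive library 1 or 2 (adjusted p = 0.06 and 0.0703) or cortex GFP-negative library 1 or 3 (adjusted p = 0.0891 and 0.102), and with the older mice only both calls were lost (adjusted p = 0.13 and 0.228). The counts join all Crem isoforms, and the antisense gene Gm6225 overlaps 103 of its bases. That gene had 16 to 75 counts a library, against 1596 or more Crem counts in each library, and the library preparation keeps no strand.

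Nr5a1 passed between the gates in neither tissue, and Nr0b1 had the largest gate differences of the 10 genes in both tissues. Nr5a1 (ENSMUSG00000026751, chromosome 2, 38692656 to 38714542, minus strand) was at 309, 381 and 226 CPM in cortex GFP-positive and at 252, 361 and 243 CPM in cortex GFP-negative libraries. It was at 168, 106 and 125 CPM in medulla GFP-positive and at 203 and 78.7 CPM in medulla GFP-negative libraries. The gates overlapped in both tissues, and the lowest cortex library of either gate exceeded every medulla library. Its gate differences were log2 0.10 ± 0.34 in the cortex (adjusted p = 0.892) and log2 -0.08 ± 0.38 in the medulla (adjusted p = 0.912). Nr5a1 was 2.29-fold higher in cortex than in medulla GFP-positive cells (log2 1.20 ± 0.34, adjusted p = 0.04), and log2 1.02 ± 0.39 among GFP-negative cells did not pass (adjusted p = 0.0949). The first of these lost its call without cortex GFP-positive library 1 or 2 or medulla GFP-positive library 2 or 3 (adjusted p = 0.0836, 0.101, 0.13 and 0.0999), with the replicate block (adjusted p = 0.0515), with age as a term (adjusted p = 0.0686) and with the older mice only (adjusted p = 0.422). The second passed with DESeq2, with limma voom and without medulla GFP-negative library 1, where Nr5a1 gave log2 1.86 and an adjusted p of 0.013.

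Nr0b1 (ENSMUSG00000025056, chromosome X, 86191764 to 86195947, plus strand) was at 4.14, 4.94 and 1.26 CPM in cortex GFP-positive and at 21.7, 29.7 and 14.4 CPM in cortex GFP-negative libraries. The medulla GFP-negative libraries held 8.40 and 6.13 CPM, and the 3 medulla GFP-positive libraries held 1, 0 and 0 counts. The 4 groups did not overlap at all, in the order cortex GFP-negative, medulla GFP-negative, cortex GFP-positive and medulla GFP-positive. Nr0b1 was 6.34-fold lower in GFP-positive than in GFP-negative cortex cells (log2 -2.67 ± 0.54, adjusted p = 0.00895). In the medulla it fell by a count ratio of 493 (95% exact interval 88.0 to 19524, counting error only), with an edgeR adjusted p of 0.000196. Between cortex and medulla GFP-positive cells the count ratio was 234 (95% exact interval 41.5 to 9270), with an edgeR adjusted p of 0.00075, and between GFP-negative tissues the difference of log2 1.59 ± 0.60 did not pass (adjusted p = 0.0913). That last value of Nr0b1 passed with DESeq2 (adjusted p = 0.0393), with limma voom (adjusted p = 0.024), when only the groups compared entered the fit (adjusted p = 0.0278), with the replicate block (adjusted p = 0.0312), with age as a term (adjusted p = 0.0162) and with the older mice only (adjusted p = 0.0305). The gate effects differed between the tissues for Nr0b1 alone among the 10 genes (log2 5.83 ± 1.11, adjusted p = 0.0356, with 1.61% of all genes passing, 0.857% upward and 0.756% downward), a value that rests on the single count in medulla GFP-positive cells. This call passed without cortex GFP-positive library 3 (adjusted p = 0.0284), was lost in the 10 other fits that left out 1 library (adjusted p 0.0538 to 0.0839), and was lost with limma voom (adjusted p = 0.149) and with the older mice only (adjusted p = 0.173).

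Among the steroid cell markers, the zona glomerulosa gene Cyp11b2, for aldosterone synthase, had group means of 77.0 CPM in cortex GFP-positive, 1183 in cortex GFP-negative, 1.29 in medulla GFP-positive and 483 in medulla GFP-negative cells. Cyp11b1, for the last step of corticosterone synthesis in the zona fasciculata, had 5493, 1405, 2138 and 309 CPM. The first order is that of Mc2r and Nr0b1 between gates within each tissue, and the second that of Mrap and Prkaca. The part of zonal makeup in these differences was not tested.

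**Figure D4:**
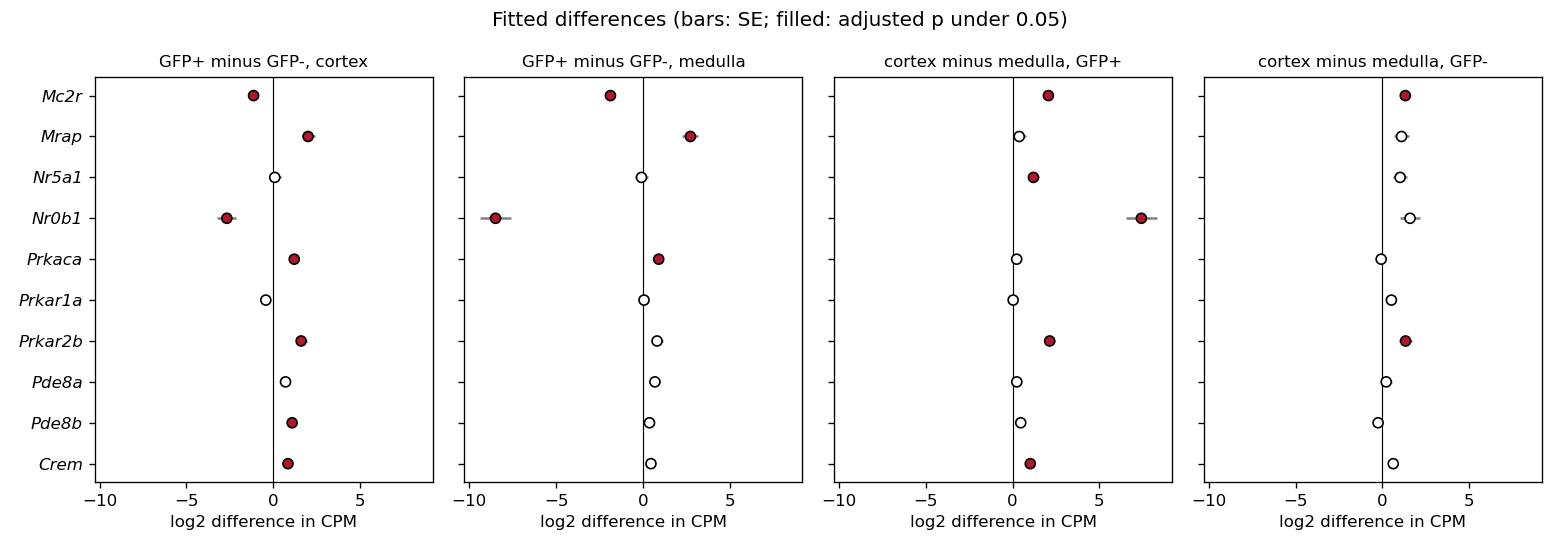
Log2 difference of each gene in the 4 comparisons, with bars of 1 SE from the edgeR fit and filled points where the adjusted p was under 0.05. Mrap and Prkaca lie right of 0 and Mc2r and Nr0b1 left of 0 in both gate comparisons, and Nr5a1 lies near 0 in both. The Nr0b1 values against medulla GFP-positive cells rest on 1 count and are no measure of size.

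When libraries were scaled to their summed steroid cell markers, an alternative added after the data were seen, the median over all genes moved to log2 -0.87 for the cortex gates, -1.31 for the medulla gates, -1.23 for GFP-positive tissues and -1.72 for GFP-negative tissues. The shift is common to all genes, and 12836 of the 12907 genes called between GFP-negative tissues were then lower in the cortex. The markers themselves did not move alike: Star had 19562 against 6112 CPM between the cortex gates, and Cyp21a1, for steroid 21-hydroxylase, 4740 against 5060 CPM, so the values depend on the markers taken. Per steroid marker, Mc2r was still lower in GFP-positive cells, Nr0b1 too, and Mrap still higher, but the called tissue differences among GFP-negative cells turned: Mc2r went from log2 1.32 to -0.28 (adjusted p = 0.367) and Prkar2b from log2 1.33 to -0.22 (adjusted p = 0.52). Among GFP-positive cells Mc2r (log2 0.90, adjusted p = 0.0116), Prkar2b (log2 0.99, adjusted p = 0.0112) and Nr0b1 (adjusted p = 0.000714) kept their call as higher in the cortex, while Nr5a1 went from log2 1.20 to 0.04 (adjusted p = 0.905) and Crem from log2 1.01 to -0.22 (adjusted p = 0.581). Prkaca went from log2 0.91 to -0.58 between the medulla gates (adjusted p = 0.145) and Crem from log2 0.86 to -0.07 between the cortex gates (adjusted p = 0.887). Nr5a1, flat between the gates by CPM, was lower per steroid marker in GFP-positive cells of both tissues (cortex log2 -0.84, adjusted p = 0.0344, and medulla log2 -1.36, adjusted p = 0.00359). The cortex gate values of Prkaca (log2 0.30, adjusted p = 0.433), Prkar2b (log2 0.69, adjusted p = 0.0605) and Pde8b (log2 0.16, adjusted p = 0.722) kept their direction and no longer passed.

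The other genes of the pathway were taken from 7 lists with 102 matched genes, of which 95 were tested. In the cortex 13 were higher and 10 lower in GFP-positive cells, and in the medulla 12 higher and 18 lower. Between GFP-positive tissues 8 were higher and 16 lower in the cortex, and between GFP-negative tissues 7 and 19. The medians of the 95 genes were log2 0.07, -0.18, -0.13 and -0.45 in turn, against 0.03, 0.09, -0.03 and -0.02 over all genes tested. Over all genes 7.14%, 10.2%, 6.04% and 8.06% passed as higher in these comparisons in turn. As lower, 7.59%, 11.1%, 9.45% and 10.6% passed, and in either direction 14.7%, 21.4%, 15.5% and 18.6%. The counts of the single lists below have these same shares as their background, and no list was tested as a set.

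Upstream of PKA, no other melanocortin receptor was measured at a level near Mc2r. Only Mc1r and the second accessory gene Mrap2 of 5 listed genes were tested, and neither passed in any of the comparisons. Their group means were at most 0.455 CPM for Mc1r and 3.84 CPM for Mrap2. Of 16 G protein and adenylyl cyclase genes, 1 was higher and 2 lower in GFP-positive cortex cells, and 2 were higher and 5 lower in GFP-positive medulla cells. Gnai1, an inhibitory G protein subunit, was higher in both (log2 3.85 ± 0.63 and 3.84 ± 0.74, adjusted p = 0.00305 and 0.00469). Rgs4, which shortens G protein signals, was lower in the cortex, at 50.2 against 341 CPM (log2 -2.76 ± 0.30, adjusted p = 0.000397), and Gnai3 fell slightly (log2 -0.63 ± 0.14, adjusted p = 0.014). In the medulla the adenylyl cyclase gene Adcy7 (log2 -2.90 ± 0.22, adjusted p = 4.3e-05) and Rgs2 (log2 -2.00 ± 0.16, adjusted p = 4.7e-05) were lower in GFP-positive cells. Between tissues, the stimulatory G protein gene Gnas was lower in the cortex in both gates (log2 -1.87 ± 0.24 and -1.37 ± 0.25), although overlapping transcripts of that locus make its counts uncertain, as was the neuronal cyclase gene Adcy1 (log2 -5.83 ± 1.05 and -6.33 ± 1.21). Rgs2 was higher in cortex than in medulla GFP-positive cells (log2 1.36 ± 0.14), and Adcy7 was lower in cortex than in medulla GFP-negative cells (log2 -2.00 ± 0.21). Macrophage markers were lower in GFP-positive cells of both tissues, at 10 of 10. Adcy7 and Rgs2 fell with them in the medulla, but neither gene passed between the cortex gates. The part of macrophages in these differences was not tested.

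Among 7 other PKA subunit and inhibitor genes, the inhibitors Pkia and Pkib moved in opposite directions. Pkia rose in GFP-positive cells, from 0.484 to 7.41 CPM in the cortex (log2 3.91 ± 0.65, adjusted p = 0.00339) and from 2.03 to 98.5 CPM in the medulla (log2 5.59 ± 0.76, adjusted p = 0.000749). Pkib fell, from 21.4 to 1.38 CPM in the cortex (log2 -3.95 ± 0.57, adjusted p = 0.00164) and from 57.1 to 9.78 CPM in the medulla (log2 -2.55 ± 0.55, adjusted p = 0.00883). Both were lower in cortex than in medulla GFP-positive cells (log2 -3.73 ± 0.58 and -2.82 ± 0.56), and the kinase gene Prkx was lower in cortex than in medulla GFP-negative cells (log2 -1.04 ± 0.30, adjusted p = 0.0377), a call lost without cortex GFP-negative library 1 or 3 or either medulla GFP-negative library (adjusted p up to 0.228). The third inhibitor gene Pkig and the catalytic gene Prkacb had group means of 60.3 to 106 CPM and 102 to 136 CPM. Like Pkia, the glial marker sums given above were higher in GFP-positive cells of both tissues. The macrophage sums were lower there, like Pkib. The part of these cell types in the differences of Pkia and Pkib was not tested.

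Of 13 tested anchoring protein genes, which hold PKA at particular places in the cell, 3 rose and 1 fell in GFP-positive cortex cells, and 2 rose and 2 fell in the medulla. Akap13 rose in the cortex (log2 0.99 ± 0.14, adjusted p = 0.00154), as did the microtubule gene Map2 (log2 1.45 ± 0.40, adjusted p = 0.0344), and Ezr fell (log2 -1.14 ± 0.30, adjusted p = 0.0315). In the medulla Akap12 rose from 9.85 to 148 CPM (log2 3.91 ± 0.77, adjusted p = 0.00541) and Map2 rose (log2 2.57 ± 0.47, adjusted p = 0.00363), while Akap10 fell (log2 -1.45 ± 0.31, adjusted p = 0.00815). Akap12, Map2 and Ezr were lower in cortex than in medulla GFP-positive cells (log2 -3.82 ± 0.65, -2.32 ± 0.40 and -1.33 ± 0.31). Akap13 and Ezr were lower (log2 -1.37 ± 0.15 and -1.22 ± 0.33) and the mitochondrial anchor Akap1 higher (log2 0.88 ± 0.22) in cortex than in medulla GFP-negative cells. Akap9 had group means of 79.4 to 140 CPM. The cortex gate calls of Map2 and Ezr were lost without cortex GFP-positive library 1 or 2 or cortex GFP-negative library 1 or 3 (adjusted p up to 0.112 and 0.115), and that of Akap10 without medulla GFP-negative library 1 (adjusted p = 0.0723). Between tissues, Ezr lost its call without cortex or medulla GFP-positive library 2 (adjusted p up to 0.0554) and without cortex GFP-negative library 1 or 2 or either medulla GFP-negative library (adjusted p up to 0.1), and Akap1 without cortex GFP-negative library 1 or medulla GFP-negative library 2 (adjusted p up to 0.158).

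Of 13 other phosphodiesterase genes tested, 3 rose and 3 fell in GFP-positive cortex cells, and 2 rose and 3 fell in GFP-positive medulla cells. Pde3a was at 9.26 CPM in cortex GFP-positive cells against 1 count in all cortex GFP-negative libraries, a count ratio of 739 (95% exact interval 132 to 29225), and at 21.8 CPM in medulla GFP-negative cells, so that GFP-negative cells differed between tissues by a count ratio of 1772 (95% exact interval 317 to 70039). Pde2a and Pde3b fell in the cortex (log2 -2.91 ± 0.51 and -2.60 ± 0.48, adjusted p = 0.00403 and 0.00534). Pde3b and Pde4b fell in the medulla (log2 -2.99 ± 0.50 and -2.56 ± 0.52, adjusted p = 0.00212 and 0.00656), and Pde1c rose from 0.0365 to 1.94 CPM, a count ratio of 53.3 (95% exact interval 14.5 to 445). In GFP-positive cells Pde7b, Pde1c and Pde4b were lower in the cortex than in the medulla (log2 -3.56 ± 0.53, -3.31 ± 0.91 and -2.31 ± 0.51). In GFP-negative cells Pde4d and Pde4b were lower in the cortex (log2 -2.98 ± 0.64 and -2.86 ± 0.53). The medulla gate call of Pde1c was lost without medulla GFP-negative library 2 (adjusted p = 0.0511), and its tissue call without any single cortex GFP-positive library or medulla GFP-positive library 1 or 2 (adjusted p up to 0.114). The macrophage and glial marker sums given above also moved with the gates. Pde3a and the pericyte and smooth muscle sums were both higher in cortex GFP-positive than in cortex GFP-negative cells. Both were also higher in medulla than in cortex GFP-negative cells. The part of these cell types in the phosphodiesterase differences was not tested.

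Of 16 other cAMP response genes, 2 rose and 2 fell in GFP-positive cortex cells, and 1 rose and 3 fell in the medulla. Rapgef4, which encodes the cAMP sensor Epac2, fell in both (log2 -1.29 ± 0.21 and -1.94 ± 0.23, adjusted p = 0.00298 and 0.000355), and Nr4a3, an ACTH-inducible nuclear receptor, did too (log2 -1.69 ± 0.36 and -2.99 ± 0.40, adjusted p = 0.0109 and 0.000657). The coactivator gene Crtc3 rose in the cortex (log2 1.06 ± 0.26, adjusted p = 0.0228), and the kinase gene Sik1 fell in the medulla (log2 -2.63 ± 0.49, adjusted p = 0.00381). Between tissues Rapgef4 was higher in the cortex in both gates (log2 1.98 ± 0.22 and 1.34 ± 0.24), as was Nr4a3 among GFP-positive cells (log2 1.88 ± 0.37). Creb1 was lower in cortex than in medulla GFP-positive cells (log2 -0.72 ± 0.19, adjusted p = 0.0315), and Sik1 was lower in cortex than in medulla GFP-negative cells (log2 -2.50 ± 0.48). The call of Crtc3 was lost without cortex GFP-positive library 2 or 3 or any single cortex GFP-negative library (adjusted p up to 0.0809), that of Creb1 without any single cortex GFP-positive library or medulla GFP-positive library 1 or 2 (adjusted p up to 0.103), and that of Rapgef4 between GFP-negative tissues without medulla GFP-negative library 2 (adjusted p = 0.057). Nr4a1 had group means of 109 to 410 CPM and Creb3 of 96.2 to 133 CPM.

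Of 28 other transcription regulators of steroid cells, 3 rose and 1 fell in GFP-positive cortex cells, and 4 rose and 4 fell in the medulla. The lipid regulator gene Srebf1 rose in the cortex (log2 0.99 ± 0.22, adjusted p = 0.0129), and the coactivator gene Ncoa3 fell in the medulla (log2 -2.15 ± 0.37, adjusted p = 0.00255). Tcf21, a capsule factor, was at 0 counts in medulla GFP-positive cells, at least 37.3-fold lower than in medulla GFP-negative cells and at least 137-fold lower than in cortex GFP-positive cells, taking 3 counts in the whole group as the floor. Nr3c1, the glucocorticoid receptor gene, was lower in cortex than in medulla GFP-positive cells (log2 -1.11 ± 0.16) and Nr2f1 higher (log2 1.05 ± 0.23). Among GFP-negative cells Gata6 was higher in the cortex (log2 1.41 ± 0.42), and Cited2 and Ncoa3 were lower (log2 -1.77 ± 0.39 and -1.63 ± 0.36). The call of Srebf1 was lost without cortex GFP-negative library 2 (adjusted p = 0.0504), and that of Tcf21 between the medulla gates without any single medulla GFP-positive library or medulla GFP-negative library 2 (adjusted p up to 0.0788). Nr2f1 lost its call without medulla GFP-positive library 2 (adjusted p = 0.0507), Cited2 and Ncoa3 theirs between GFP-negative tissues without medulla GFP-negative library 2 (adjusted p = 0.109 and 0.107), and Gata6 without that library or any single cortex GFP-negative library (adjusted p up to 0.261). Ncor1 and Pias1 had group means of 136 to 182 CPM and 45.0 to 152 CPM.

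The genes most like 3 of the members over the 11 libraries were found by Pearson's r of log2(CPM + 1) among 11960 genes with a mean of 5 CPM or more. The libraries share their groups, so r mostly describes the order of the group levels, and it is given with no test. For Mc2r the closest were Rbpms2 (r = 0.992), Rnaset2b (0.991), Ly6d (0.989), Skap1 (0.987) and Nceh1 (0.987). Rbpms2 had group means of 77.2, 202, 22.2 and 79.1 CPM and Ly6d of 1529, 4790, 183 and 1813 CPM, in the order cortex GFP-positive, cortex GFP-negative, medulla GFP-positive and medulla GFP-negative. For Nr5a1 they were Gm6863 (r = 0.970), Hspe1-ps5 (0.966), Tcf7 (0.956), Brd3 (0.950) and Lrrc75a (0.949), and for Prkar2b Trp53inp2 (r = 0.986), Gm15806 (0.971), Gm3531 (0.963), Rps27l (0.959) and Akr1b7 (0.959). Akr1b7, an aldose reductase-like gene of the adrenal cortex known to respond to ACTH, had group means of 7995, 2460, 1978 and 762 CPM in the same order. Rnaset2b has a near-identical copy, and Hspe1-ps5 and the genes with Gm names may share reads with parent genes, so their values are uncertain.

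The authors' deposited tables covered 3 of the comparisons, and in them the test statistic matched a test of whether the absolute log2 change exceeds 1, within 0.01 for 100% of genes. By that stricter question the authors' deposited tables gave Nr0b1 an adjusted p of 0.0204 between the cortex gates, 2.9e-11 between the medulla gates and 6.5e-08 between GFP-positive tissues. In the authors' deposited tables Mc2r had 0.0232 between the medulla gates and 0.00234 between GFP-positive tissues, and Mrap had 0.00106 between the medulla gates. The other adjusted p-values of the 10 genes in the authors' deposited tables were 0.0539 (Prkar2b between GFP-positive tissues), 0.196 (Mrap between the cortex gates) or 1.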

How the data were processed

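Libraries were poly(A)-primed, template-switched cDNA amplified by 17 PCR cycles without molecular identifiers, per the labels' protocols. Reads were handled with bcl2fastq 2.19.1, GSNAP, featureCounts 1.6.0 and DESeq2 1.18.1 on mm10, per the submitters' processing notes. The deposited gene counts, the authors' whole-number read counts, were the only values tested. The authors also deposited DESeq2-normalized values, a signal on the scale of counts divided by size factors, used only to check column identity, and tables of log2 fold changes with p-values per the file headers, quoted where named.

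From the counts, 20893 of 49671 genes passed filterByExpr, and all 10 members did. One edgeR 4.0.16 quasi-likelihood fit in R 4.3.3 covered the 4 groups (TMM scaling, 7 residual degrees of freedom, Benjamini-Hochberg adjustment over all genes, threshold 0.05). The printed SE is the absolute log2 difference divided by the square root of F, an approximation. The interaction is the cortex gate difference minus the medulla gate difference. Depth was 18500690 to 29204212 counts a library. Intervals and floors (3 counts) cover counting error only. Replicates differed by more than counting noise in each group (chi-square per degree of freedom 29.1 to 104). The scripts were tested on simulated data. Gene lengths and coordinates came from GENCODE's mm10 annotation and symbols from the deposited tables or the reference. Alternatives were other scalings, filters, tools (DESeq2 1.42.0, limma 3.58.1 voom), samples and covariates.

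Genes were named by a rule: all members, the 3 passing genes with the largest absolute log2 difference and a mean of at least 1 CPM in some group for each list and comparison, listed genes above 100 CPM in some group, and the 5 genes most like Mc2r, Nr5a1 and Prkar2b. Some listed genes that this rule would name are not reported here. The members and lists were chosen with earlier results of these data known.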

Additional observations from a re-analysis of the deposited data

Results flagged for a closer look

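The difference between the gate effects of cortex and medulla, the cortex gate log2 difference minus the medulla one, passed the edgeR test for 1 of the 10 members and 4 of the 95 listed pathway genes. Over all genes 1.61% passed. Nr0b1 had a value of 5.83, with 3.45, 21.9, 0.0172 and 7.27 CPM in cortex GFP-positive, cortex GFP-negative, medulla GFP-positive and medulla GFP-negative cells, and kept its call in 1 of the 11 fits that left out a library. Pde3a had 8.38, resting on 1 count in cortex GFP-negative cells. Adcy7 had 2.56, with 28.9 against 36.3 CPM between the cortex gates and 19.5 against 145 CPM between the medulla gates. Rgs2 had 1.87, with 571 against 625 CPM in the cortex and 222 against 887 CPM in the medulla. Akap13 had 1.23, with 102 against 51.5 CPM in the cortex and 112 against 133 CPM in the medulla, and its call was lost without cortex GFP-positive library 3, any single cortex GFP-negative library or medulla GFP-negative library 2 (adjusted p up to 0.0839). Groups of 2 or 3 libraries are too small for the check on single libraries that stand apart.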

How the results depend on the processing

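Of the member values under all alternatives but the steroid marker scaling, 732 kept their direction and their side of the threshold, 20 newly passed, 36 no longer passed and 32 changed sign, none of the last passing before or after. Each such lost or gained call is named with its gene in the report, by value or range or by its setting alone. Of the called values of other listed genes under the same alternatives, 1000 kept and 104 lost their call. Unless a value shows it, the cause was not tested.

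With total counts in place of TMM, Nr5a1 gave -0.016 between the cortex gates, 0.0085 between the medulla gates and -0.024 for the interaction, Pde8a gave -0.17 for the interaction, Prkar1a gave -0.044 between GFP-positive tissues, and Prkaca gave 0.017 between GFP-negative tissues. Prkar1a gave -0.023 between GFP-positive tissues with RLE scaling and with DESeq2 alike. For Nr5a1 the medulla gate value was 0.016 with limma voom, 0.084 with the replicate block, 0.23 with age as a term and 0.26 with the older mice only, and its interaction was -0.0066 with the replicate block, -0.15 with age and -0.090 with the older mice only. The Pde8a interaction was -0.060 with limma voom, -0.18 with the replicate block and -0.28 with age. Leaving out 1 library moved Nr5a1 over -0.093 to 0.30 between the cortex gates, -0.61 to 0.76 between the medulla gates and -0.66 to 0.71 for the interaction. It moved Pde8a over -0.11 to 0.65 between GFP-negative tissues and -0.41 to 0.35 for the interaction, and Prkar1a over -0.045 to 0.12 between GFP-positive tissues and -0.27 to 0.49 between the medulla gates.

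Members passing between GFP-negative tissues numbered 5 with DESeq2, 5 with limma voom, 4 with the replicate block and 4 with age as a term, against 2 in the report's fit. In all genes 5338, 5103, 3339 and 3441 passed there in turn, against 3892 in the report's fit. With the older mice only, 4 passed between the cortex gates, 2 between GFP-positive tissues and 0 for the interaction, which limma voom also put at 0. Leaving out 1 library gave 5 to 8 members between the cortex gates, 4 to 5 between the medulla gates, 4 to 5 between GFP-positive tissues, 0 to 5 between GFP-negative tissues and 0 to 1 for the interaction. In all genes these fits called 1959 to 2405, 2956 to 3922, 2006 to 2874, 1411 to 3720 and 56 to 489 in turn. The older mice alone gave 1293, 1843, 573, 2109 and 0 genes in turn, from fewer libraries. The interaction called 337 genes in the report's fit, 1559 with DESeq2, 512 with a stricter filter, 176 with the replicate block and 93 with age. Total counts split the calls into 1244 higher and 2032 lower between the cortex gates, 2280 and 2043 between GFP-negative tissues and 122 and 270 for the interaction, whose median over all genes became -0.19.

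The labels do not tie the replicate numbers to pools, and pairing was not taken. By the labels, number 2 came from mice of about 3.5 months in both cortex groups and of about 2.5 months in medulla GFP-positive. Deviations of same-numbered pairs correlated at 0.121, 0.145 and 0.0355 between the cortex gates and 0.0909, 0.0791 and 0.133 between GFP-positive tissues. The values were 0.0169 and -0.0135 between the medulla gates and 0.151 and 0.0601 between GFP-negative tissues. Between the cortex gates and between GFP-positive tissues each library correlated best with its own number, a hint from the data only. Between the medulla gates this did not hold for every library. With the replicate number as a block 2815, 3985, 2908 and 3339 genes passed in the 4 comparisons.

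Scaling to steroid cell markers, chosen after seeing the data, called 6698, 10434, 10277, 12907 and 46 genes in turn, of which 6177, 9802, 10108, 12836 and 8 were lower, a shift common to all genes that also sets the signs below. It called 5 members between GFP-negative tissues, all lower in the cortex. It turned Nr5a1 to -0.84, Pde8a to -0.22 and Crem to -0.073 between the cortex gates, and between the medulla gates Prkaca to -0.58, Prkar1a to -1.22, Prkar2b to -0.51, Pde8a to -0.58, Pde8b to -1.02 and Crem to -0.86. Between GFP-positive tissues it turned Mrap to -0.77, Prkaca to -0.91, Prkar1a to -1.20, Pde8a to -1.03, Pde8b to -0.73 and Crem to -0.22. Between GFP-negative tissues it turned Mc2r to -0.28, Mrap to -0.44, Nr5a1 to -0.48, Nr0b1 to -0.045, Prkar1a to -1.08, Prkar2b to -0.22, Pde8a to -1.38 and Crem to -1.002.

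The tissue difference in the Prkar2b share was 11.2 to 17.7 percentage points when 1 library was left out, with exact permutation p-values down to 0.0238 without cortex GFP-negative library 1. That of the Pde8b share was -3.28 to 0.271, and 3.69 in GFP-positive libraries alone. Depth limits only Nr0b1 among the members, with 1 count in medulla GFP-positive cells.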
